A study of Mus musculus with 15 samples.

Results

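Sox proteins are transcription factors that bind DNA through a high-mobility-group domain related to that of Sry. The 10 Sox genes described here were those listed as factors of neural progenitors and young neurons, and each was measured by the row of the array table that named it alone, taking the row of highest mean where there were several. All 10 were found, on 12 rows, among 22180 named genes, and all 10 lay in the 16635 genes that were tested. They form 4 subgroups. Sox1, Sox2 and Sox3 (SoxB1) are activators that hold neural progenitors in an undifferentiated state, and Sox2 is also known from postmitotic neurons of the thalamus. Sox14 and Sox21 (SoxB2) carry repressor domains. Sox4, Sox11 and Sox12 (SoxC) act in newly born neurons, and Sox5 and Sox6 (SoxD) bind DNA without an activation domain of their own and act with other Sox proteins in neurons and glia.

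Cells were sorted from the thalamus of mouse embryos of genotype Gbx2CreER-IRES-EGFP/+::R26lsl-tdTomato/+, kept on a C57BL/6 background, and their total RNA was measured on 15 arrays. All groups carried both alleles. EGFP reported the Gbx2 locus at the time of the sort (green), and tdTomato marked cells in which Gbx2-driven CreER had been active after tamoxifen, with their descendants (red). Tamoxifen (4 mg) was given at E9 where embryos were taken at E18.5, and at E9.5 where they were taken at E14.5, so stage and the day of tamoxifen cannot be told apart. The 5 groups were E18.5 red, E18.5 green, E18.5 double-labelled, E14.5 red and E14.5 green cells, each with 3 samples that the labels call biological replicates. Not given are the sorting gates and the number of embryos per replicate, and p-values measure the spread between these samples. In bulk RNA of sorted cells, fewer expressing cells and less RNA per cell cannot be told apart.

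Gbx2 itself, whose locus drove the sort, stood at 6.35 in E18.5 red, 8.43 in green and 8.33 in double-labelled cells, and at 7.30 and 8.07 in E14.5 red and green cells (group means, log2 signal). Mean levels of 16 caudal thalamic genes, Gbx2 among them, were 7.61 to 8.96 over the 15 arrays. Those of 10 endothelial and pericyte genes were 5.34 to 5.60 at E18.5 and 4.70 to 4.83 at E14.5, and those of 9 microglial genes 5.61 to 5.96 and 5.06 to 5.23. No detection calls were used here, and genes with a mean under 5.07 were left untested. Within the ranges of these lists at the same stage lay some values of Sox1 at E18.5 and of Sox3, Sox6 and Sox21 at both stages. For Sox6 and Sox21 at E14.5 these were only 5.08 in red cells for Sox6 and 5.16 in red and in green cells for Sox21. The green Sox6 values of E14.5, 5.37 to 6.13, lay above the ranges. Sox12 and Sox14 lay above these list means at either stage. A single gene can exceed the mean of its list. Microglial Cx3cr1, singled out after its values were seen, had means of 7.23 in E18.5 red and 6.21 in E14.5 red cells. The E14.5 values of Sox12 and Sox14 fell partly within the microglial range of E18.5, a comparison that carries the shift between stages described below. Replicate 1 of the E18.5 red cells and replicate 1 of the double-labelled cells had a narrower spread of all values (SD 1.34 and 1.31) than the other E18.5 arrays (1.44 to 1.51).

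Levels are log2 signals as the authors deposited them, in the order of replicates 1, 2 and 3. Deposited levels were higher overall at E18.5, by a median of 0.60 in red and 0.61 in green cells over all tested genes. Of 33794 rows, 42.9% held an exact tie between E18.5 arrays, 1.71% a tie between E14.5 arrays, and 3 rows shared a value between stages. Whether the stages were processed separately was not stated. Comparisons between stages were therefore made after subtracting each array's median over the tested genes, and say how a gene moved relative to that median. On that scale the median difference over all tested genes was -0.05 in red and -0.09 in green cells. For the Sox genes the same comparison as deposited and after joint quantile normalization is given beside that with the array median removed.

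**Figure D1:**
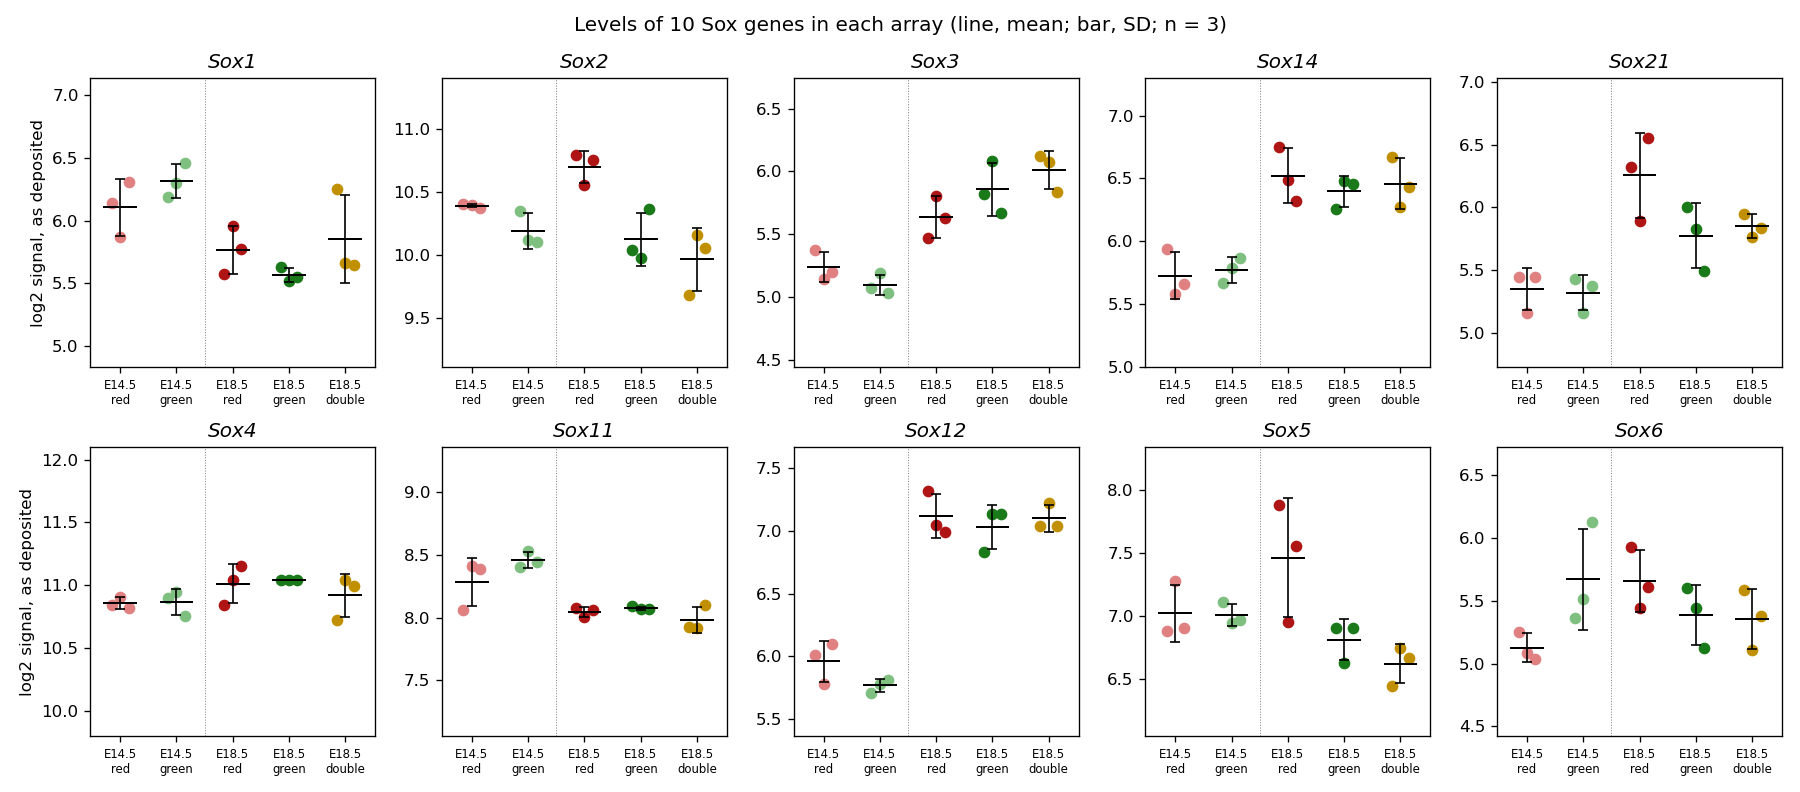
Log2 signal as deposited for each of the 10 Sox genes, 1 panel per gene with a span of the same height, in E14.5 red and green and E18.5 red, green and double-labelled cells. Points are arrays, lines the mean and bars the SD of 3 arrays; Sox12 lies higher and Sox11 mostly lower at E18.5, and Sox2 is highest in E18.5 red cells, while levels across stages carry the overall shift of about 0.60 described in the text.

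SoxB1 genes at the later stage differed in how they were spread over the populations. Sox2 was at 10.80, 10.56 and 10.75 in E18.5 red arrays. It was at 10.04, 9.97 and 10.37 in green arrays and at 9.68, 10.16 and 10.06 in double-labelled arrays. Every red array was above every green and every double-labelled array, and the latter groups overlapped. The red mean exceeded green by 0.58 (SE 0.14, 95% interval 0.27 to 0.88, or 1.49-fold) and the double-labelled mean was below red by 0.74 (SE 0.14, interval of double-labelled minus red -1.04 to -0.43, or 1.67-fold). Neither passed limma's test over all genes (adjusted p 0.11 and 0.091, unadjusted 0.0011 and 0.00013). Sox2 ranked 166th and 24th of 16635 genes by p in these comparisons. Between double-labelled and green cells the difference was -0.16 (interval -0.46 to 0.14, adjusted p 0.84). At E14.5 Sox2 stood at 10.40, 10.39 and 10.38 in red and 10.35, 10.12 and 10.10 in green arrays, which did not overlap but differed by 0.20 with an interval of -0.10 to 0.50 (adjusted p 0.74).

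The Sox2 difference between double-labelled and red cells did pass after the array median was removed (-0.77, adjusted p 0.049), and that between red and green cells after quantile normalization (0.73, adjusted p 0.025) and without double-labelled replicate 1 (0.58, adjusted p 0.028). With the 9 E18.5 arrays fitted alone, adjusted p was 0.53 for red against green and 0.76 for double-labelled against red. Without both narrow-range arrays the differences were 0.53 (adjusted p 0.062) and -0.55 (0.16). Sox2 thus kept its direction on every scale but stood on either side of the threshold.

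Sox1 was at 5.58, 5.96 and 5.77 in E18.5 red, 5.63, 5.52 and 5.55 in green, and 6.25, 5.66 and 5.64 in double-labelled arrays. Double-labelled arrays lay above green arrays without overlap, by 0.29 (interval -0.07 to 0.64, adjusted p 0.84), and the narrow-range array was the one at 6.25. Sox3, the X-linked SoxB1 gene, was at 5.47, 5.80 and 5.63 in red, 5.82, 6.09 and 5.67 in green and 6.12, 6.08 and 5.84 in double-labelled arrays. Its order was the reverse of that of Sox2, lowest in red and highest in double-labelled cells, with a difference of 0.38 between these that did not pass (SE 0.13, interval 0.10 to 0.66, adjusted p 0.78). At E14.5 Sox1 was at 6.14, 5.87 and 6.31 in red and 6.18, 6.30 and 6.46 in green arrays, and Sox3 at 5.38, 5.14 and 5.20 against 5.07, 5.19 and 5.03. Both overlapped there, with differences of -0.21 for Sox1 (interval -0.57 to 0.15) and 0.14 for Sox3 (interval -0.14 to 0.43).

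Sox5, the SoxD gene of higher mean level on its row, was spread over the E18.5 populations much as Sox2 was. Its level was 7.89, 6.95 and 7.56 in red, 6.91, 6.63 and 6.91 in green, and 6.45, 6.74 and 6.67 in double-labelled arrays. Red arrays lay above all others, replicate 2 only narrowly. Red exceeded green by 0.65 (SE 0.19, interval 0.24 to 1.07, adjusted p 0.23, unadjusted 0.0048), and double-labelled minus red was -0.85 (interval -1.26 to -0.43, adjusted p 0.22, unadjusted 0.00067). Without red replicate 2 the Sox5 differences passed, at 0.91 (adjusted p 0.024) and -1.10 (adjusted p 0.016). Without both narrow-range arrays, of which red replicate 1 had the highest Sox5 value, they were 0.44 (adjusted p 0.32) and -0.55 (0.32), which is more than 1.5 times smaller for double-labelled against red. At E14.5 Sox5 stood at 6.88, 7.28 and 6.90 in red and 7.11, 6.95 and 6.97 in green arrays, a difference of 0.01 with an interval of -0.41 to 0.43.

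Sox6, the other SoxD gene of the 10, was at 5.93, 5.44 and 5.61 in E18.5 red, 5.60, 5.44 and 5.13 in green and 5.58, 5.11 and 5.38 in double-labelled arrays, which overlapped. At E14.5 it was at 5.25, 5.08 and 5.04 in red and at 5.37, 5.51 and 6.13 in green arrays. All 3 red arrays were lower, with a difference of -0.54 (SE 0.20, interval -0.97 to -0.12, adjusted p 0.23). It passed when each stage was given its own spread (adjusted p 0.04), and the difference was -0.31 (adjusted p 0.84) without green replicate 3. The red-green difference of Sox6 at E18.5 minus that at E14.5 was 0.82 (SE 0.28, interval 0.21 to 1.42), the largest of the 10 and not past the threshold (adjusted p 0.28).

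Sox21, which promotes neuronal differentiation by countering SoxB1 factors, was at 6.32, 5.89 and 6.55 in E18.5 red, 6.00, 5.83 and 5.50 in green, and 5.95, 5.76 and 5.83 in double-labelled arrays. Groups overlapped through red replicate 2. The red mean was above green by 0.48 (interval 0.12 to 0.84, adjusted p 0.35) on the row used, and a second Sox21 row of lower mean gave 0.14 (adjusted p 0.67). Sox14, known from inhibitory neurons of the rostral thalamus, differed little on its row, at 6.75, 6.49 and 6.32 in red, 6.26, 6.48 and 6.46 in green and 6.67, 6.27 and 6.43 in double-labelled arrays. In all 3 groups the values overlapped, and the narrow-range arrays were the highest of their group. The red-green difference of Sox14 was 0.12 (interval -0.18 to 0.43) at E18.5 and -0.05 (interval -0.35 to 0.26) at E14.5. Sox21 differed by 0.03 at E14.5 (interval -0.33 to 0.39).

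SoxC genes differed little between red and green cells at E18.5, with intervals that held 0. Sox11 was at 8.07, 8.003 and 8.06 in E18.5 red, 8.09, 8.07 and 8.06 in green and 7.93, 7.92 and 8.10 in double-labelled arrays. Red minus green was -0.03 (interval -0.26 to 0.20, adjusted p 0.91). Sox4 was at 10.85, 11.04 and 11.15 in red, at 11.04 in each green array, and at 10.72, 11.04 and 10.99 in double-labelled arrays. In all, 5 of the 9 E18.5 arrays held exactly the same Sox4 value, so the SD of 0 in green cells is no measure of how closely those samples agreed. Sox12 was at 7.31, 7.04 and 6.99 in red, 6.83, 7.13 and 7.13 in green and 7.04, 7.22 and 7.03 in double-labelled arrays. Red minus green was -0.03 for Sox4 (interval -0.27 to 0.21) and 0.08 for Sox12 (interval -0.18 to 0.35). A second Sox4 row gave 0.21 (SE 0.11, adjusted p 0.53). At E14.5 Sox11 was at 8.06, 8.41 and 8.38 in red and 8.41, 8.53 and 8.44 in green arrays, and red was lower by a mean difference of -0.18 that did not pass (interval -0.40 to 0.05, adjusted p 0.63). Sox12 was at 6.01, 5.78 and 6.10 in red and 5.71, 5.78 and 5.81 in green arrays, a difference of 0.19 (interval -0.08 to 0.46, adjusted p 0.69).

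**Figure D2:**
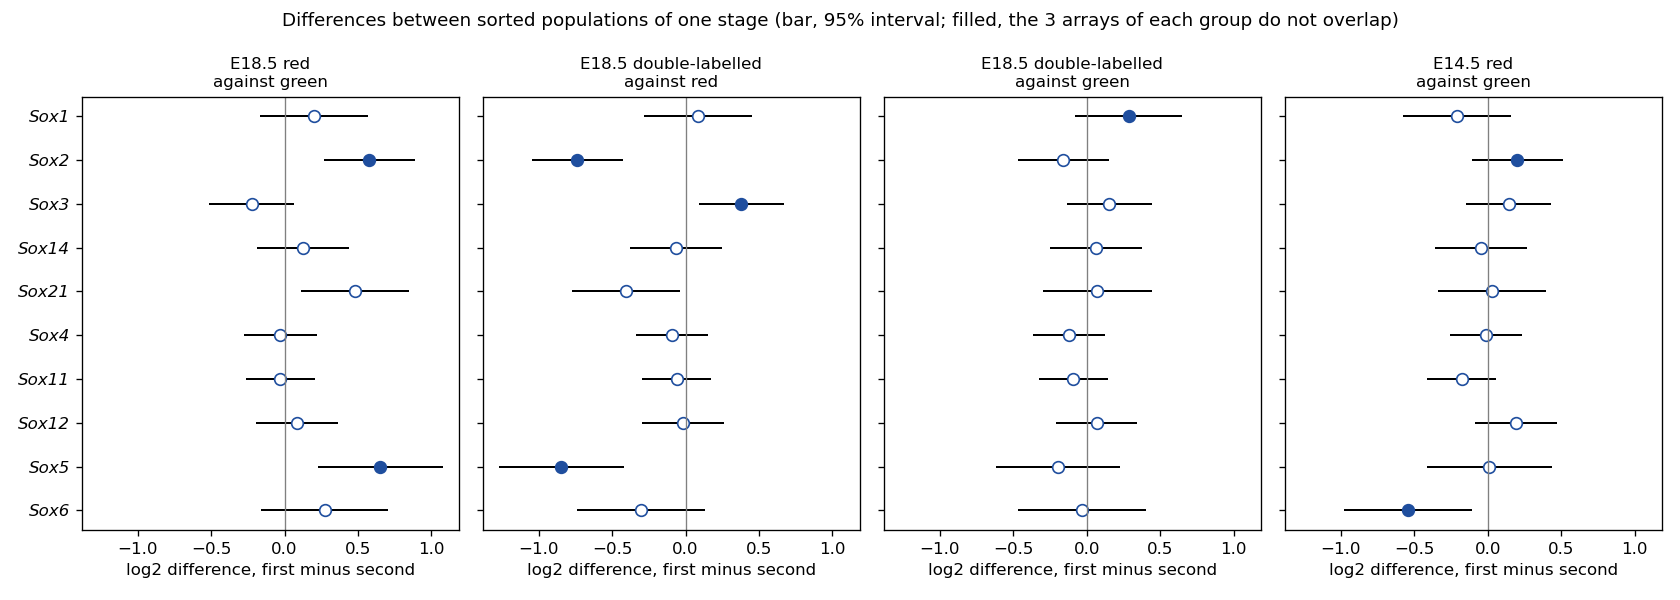
Log2 difference (first group minus second) of each Sox gene in 4 comparisons within a stage, with the 95% interval from limma; a filled point marks groups of 3 arrays that do not overlap. Sox2 and Sox5 stand to the right of 0 in E18.5 red against green (0.58 and 0.65) and to the left in double-labelled against red (-0.74 and -0.85), and none of the 40 differences passed the threshold over all genes.

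Counted over these comparisons, 0 of 10 Sox genes passed limma's threshold of adjusted p 0.05 in E18.5 red against green cells, where 0.613% of all genes did. The count was also 0 of 10 for double-labelled against green (0.0361% of all genes), double-labelled against red (0.0902%) and E14.5 red against green cells (3.52%). With such shares, fewer than 1 call among 10 genes would match the background in each. An unadjusted p under 0.05 was found for 3 genes in red against green (10% of all genes), 0 in double-labelled against green (5.7%), 4 in double-labelled against red (4.52%) and 1 in E14.5 red against green (11.9%). Groups did not overlap for 2 genes (15.3% of all genes), 1 (8.15%), 3 (4.18%) and 2 (27.9%) in the same order. For the stage dependence of the red-green difference the count was 0 of 10, against 1.05% of all genes, with 2 at an unadjusted p under 0.05 (Sox5 and Sox6) against 8.96%. The E18.5 comparisons share arrays, so their counts do not add up. The median difference of the 10 genes was 0.16 in E18.5 red against green cells and 0.00 at E14.5.

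Other lists of genes are set beside these values, first in E18.5 red against green cells, where 0.613% of all genes passed in either direction. In E18.5 red cells 16 caudal thalamic genes had mean levels of 8.20 to 8.52, below the 8.86 to 8.96 of green arrays, and 4 of 16 were lower and 1 higher by limma. Gbx2, whose locus drove the sort, is in this list and among the 4 lower genes (-2.07), so its difference is no independent result. The other lower genes were Calb2 (-2.41), Lhx9 (-0.99) and Cacng3 (-1.45). Astrocyte genes (10) were at 6.19 to 6.52 in red and 6.14 to 6.22 in green arrays, and oligodendrocyte lineage genes (9) at 5.71 to 6.09 and 5.69 to 5.80, with 0 of 10 and 0 of 7 tested past the threshold. Microglial genes were at 5.71 to 5.96 in red and 5.63 to 5.69 in green arrays, which did not overlap, and 0 of 8 tested passed. Radial glia and progenitor genes were at 6.22 to 6.50 in red, 6.13 to 6.31 in green and 6.20 to 6.35 in double-labelled arrays, and 0 of 17 passed. Among them Fabp7, a fatty acid binding protein of radial glia and astrocytes, had means of 9.72, 8.65 and 8.08 in red, green and double-labelled cells, and Hes1, a Notch effector, of 6.75, 5.98 and 6.21. Red minus green was 1.06 for Fabp7 (SE 0.42, adjusted p 0.43) and 0.76 for Hes1 (SE 0.19, adjusted p 0.11). The 17 differences ran from -0.18 to 1.06, with a median of 0.10. Nes (6.18 in red and 6.36 in green cells), Hes5 (6.09 and 6.19), Olig3 (5.31 and 5.45) and Hopx (5.52 and 5.61) went the other way. In the astrocyte, oligodendrocyte, microglial and progenitor lists the highest red array was the narrow-range replicate 1. Its astrocyte mean was 6.52, against 6.19 in each other red array. The part of any of the listed cell types in the Sox2 and Sox5 values was not tested. Of the 7 other Sox genes tested 0 passed, with differences of -0.09 to 0.63. The highest was that of Sox13, a further SoxD gene, at means of 7.39 in red, 6.76 in green and 6.99 in double-labelled cells (SE 0.16, adjusted p 0.12). Sox9 and Sox10, which mark glia, differed by 0.38 and -0.07. Fabp7, Hes1, Nes, Hes5, Olig3, Hopx, Sox13, Sox9 and Sox10 were singled out here after their values were seen. Among 16 genes of rostral thalamic and prethalamic inhibitory neurons, the neurons for which Sox14 is known, 1 was higher in E18.5 red cells, the zinc finger factor Sp9 (0.88, adjusted p 0.018).

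At E14.5 other progenitor genes passed between red and green cells where no Sox gene did. Of all genes 3.52% passed there, in either direction. The difference between the lists was not tested. Olig3, a helix-loop-helix factor of thalamic progenitors, was lower in red cells, with red minus green at -3.19 on the log2 scale (adjusted p 8.9e-07). Prom1, a membrane protein of progenitors, differed by -0.96 and Nes, which encodes nestin, by -0.54. In all, 4 of 17 radial glia and progenitor genes were lower in red cells and 1 was higher, Slc1a3 (1.01), a glutamate transporter of radial glia. Of 12 cycling-cell genes 5 were lower and 0 higher, among them Top2a (-1.89) and Mki67 (-1.17), and the mean level of that list was 5.49 to 5.65 in red and 6.00 to 6.24 in green arrays. Of 20 young-neuron genes 5 were lower and 1 higher, with Nhlh1 at -2.53 and St18 at -1.83. Against these, Sox1 differed by -0.21, Sox2 by 0.20, Sox3 by 0.14, Sox11 by -0.18 and Sox4 by -0.01. Sox5, Sox12, Sox14 and Sox21 differed by 0.01, 0.19, -0.05 and 0.03. The difference of Sox6 was -0.54, the same as that of Nes, but did not pass by limma (adjusted p 0.23).

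From E14.5 to E18.5, relative to the array median, Sox1 and Sox11 fell and Sox12 rose in both red and green cells. Sox11 minus the array median went from 2.39 to 1.50 in red cells (difference -0.89, SE 0.11, 1.85-fold, adjusted p 8.4e-05) and from 2.59 to 1.50 in green cells (-1.08, SE 0.11, 2.12-fold, adjusted p 6.3e-06). Sox1 went from 0.21 to -0.77 in red (-0.99, SE 0.17, adjusted p 0.0011) and from 0.44 to -1.005 in green cells (-1.44, SE 0.17, 2.72-fold, adjusted p 2.4e-05). The E14.5 and E18.5 arrays of these genes did not overlap on that scale. As deposited the same differences had the same sign and were smaller, at -0.24 (adjusted p 0.055) and -0.39 (0.005) for Sox11 and -0.34 (0.083) and -0.75 (0.0013) for Sox1, so that both missed the threshold as deposited in red cells. After quantile normalization they were -0.82 and -1.04 for Sox11 and -1.01 and -1.34 for Sox1, all past the threshold, so both genes passed on every scale in green cells. The deposited E18.5 green levels of Sox1, 5.52 to 5.63, all lay within the endothelial or microglial ranges of that stage. Its fold in green cells thus rests on an end point near those list means.

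Sox12 moved against Sox11, of the same subgroup. Its deposited level was 6.01, 5.78 and 6.10 in E14.5 red arrays and 5.71, 5.78 and 5.81 in E14.5 green arrays, against 6.99 to 7.31 in E18.5 red and 6.83 to 7.13 in E18.5 green arrays. Relative to the array median it rose by 0.51 in red (SE 0.12, adjusted p 0.0088) and 0.57 in green cells (SE 0.12, adjusted p 0.0028). After quantile normalization the rises were 0.55 and 0.55, and as deposited 1.16 and 1.26, all past the threshold. Sox12 was the single gene of the 10 that was called in the same direction on all 3 scales in both populations.

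The spread behind the Sox4 p-values may be too small, as 5 of the 9 E18.5 arrays held the same deposited value. For Sox4 the stage direction depended on the scale. Relative to the array median it fell by 0.49 in red (adjusted p 0.0048) and 0.52 in green cells (adjusted p 0.0021), and after quantile normalization by 0.28 and 0.32 (adjusted p 0.032 and 0.014), but as deposited it stood 0.16 and 0.18 higher at E18.5 (adjusted p 0.22 and 0.16). The second Sox4 row, with the array median removed, differed by -0.18 in red (adjusted p 0.26) and -0.44 in green cells (adjusted p 0.0067), and as deposited it too was positive, at 0.47 and 0.25. Another 3 genes fell past the threshold in green cells relative to the array median, Sox2 (-0.76, SE 0.14, adjusted p 6.1e-04), Sox5 (-0.89, SE 0.20, adjusted p 0.0031) and Sox6 (-0.98, SE 0.21, adjusted p 0.0024). These kept their sign as deposited, at -0.07, -0.20 and -0.28, without passing (adjusted p 0.67, 0.37 and 0.21), and were -0.72, -0.82 and -0.89 after quantile normalization, all past the threshold. In red cells Sox2, Sox5 and Sox6 differed by -0.34, -0.21 and -0.12 relative to the median, with adjusted p of 0.087, 0.49 and 0.73, and their sign was positive as deposited (0.31, 0.44 and 0.53, with Sox6 past the threshold at adjusted p 0.027). After quantile normalization they were -0.21, -0.14 and -0.12. The deposited E18.5 green levels of Sox6, 5.13 to 5.60, lay within or below the endothelial range of that stage.

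Sox14, Sox21 and Sox3 did not pass relative to the array median in either population. Sox14 differed by 0.14 in red (interval -0.19 to 0.48) and -0.07 in green cells (interval -0.40 to 0.26). Sox21 differed by 0.25 and -0.24 on the row used, and Sox3 by -0.26 and 0.07. The second Sox21 row gave -0.35 in red (adjusted p 0.096) and -0.38 in green cells (adjusted p 0.053). After quantile normalization the values on the rows used were 0.15 and -0.06 for Sox14, 0.23 and -0.19 for Sox21, and -0.26 and 0.13 for Sox3, and none passed. As deposited these genes, on the rows used, were higher at E18.5 by 0.39 to 0.90 and passed in both populations. So did 71.3% of all genes upward in red and 71% in green cells, so such a call is near the background.

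**Figure D3:**
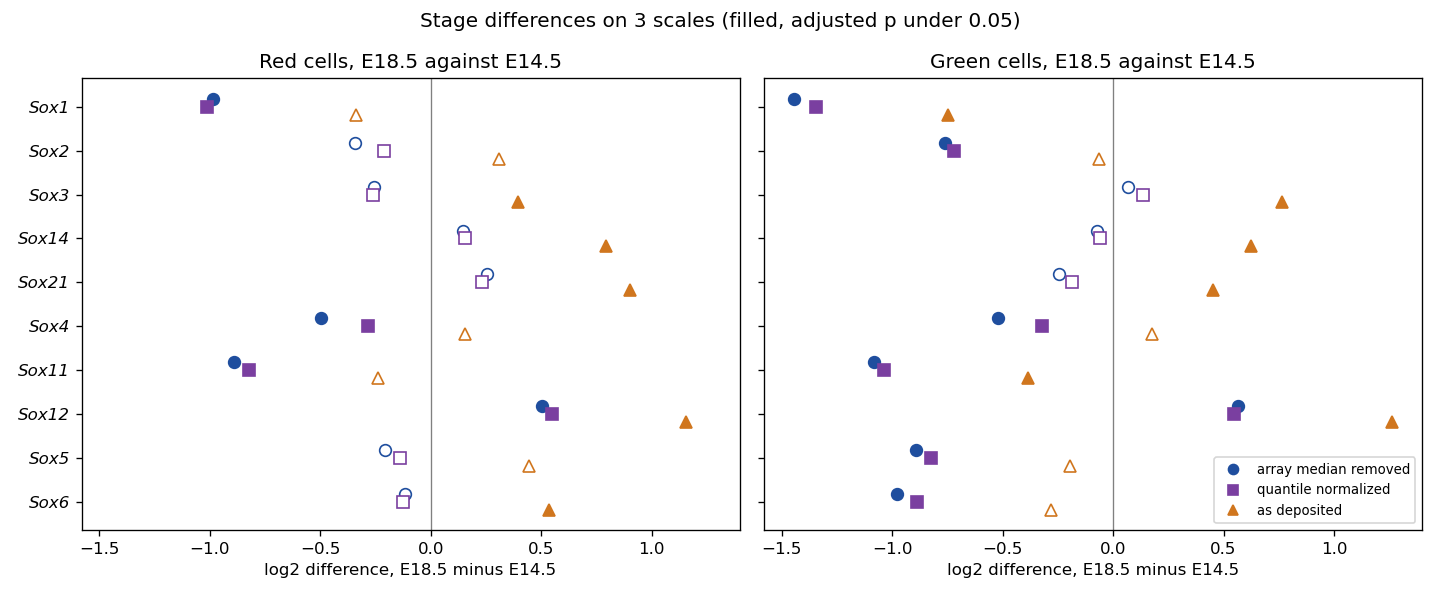
Log2 difference, E18.5 minus E14.5, of each Sox gene in red and in green cells on 3 scales: array median removed (circles), quantile normalized (squares) and as deposited (triangles); filled symbols have an adjusted p under 0.05. Sox1 and Sox11 lie left of 0 and Sox12 right of 0 on every scale in both panels, while Sox4 changes side as deposited, at 0.16 and 0.18.

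Relative to the array median 4 of 10 Sox genes were called in red cells, where 23.2% of all genes were, and 7 of 10 in green cells, where 33.1% were. Arrays of the stages did not overlap for 6 of 10 in red (39.4% of all genes) and 7 of 10 in green cells (61.2%). By direction, 3 of 10 were lower at E18.5 in red cells, where 13.3% of all genes were, and 1 was higher, where 9.9% were. In green cells 6 of 10 were lower against 20.1% of all genes, and 1 higher against 13%. As deposited the counts were 0 lower and 5 higher in red cells, against 1.06% and 71.3% of all genes, and 2 lower and 4 higher in green cells, against 2.45% and 71%. The higher counts as deposited were thus below the share over all genes. Over all tested genes the median difference relative to the array median was -0.05 in red and -0.09 in green cells. For the 10 Sox genes it was -0.23 and -0.64. The larger fall in green cells was not past the threshold for any of the 10 when the difference between stages was itself tested, with the lowest adjusted p of 0.28 for Sox6.

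Other genes of progenitors and young neurons moved over the same interval, also relative to the array median. Of all genes 20.1% were called lower and 13% higher in green cells (2.45% and 71% as deposited). In red cells the shares were 13.3% and 9.9% (1.06% and 71.3% as deposited). Of 17 progenitor genes 10 were lower and 0 higher at E18.5 in green cells, and 8 lower and 2 higher in red cells. Olig3 fell by 4.18 in green cells and fell by 1.09 in red cells. Prom1 fell by 2.32 in green cells, and Neurog2, a proneural factor, fell by 1.88. Hes1 rose in red cells (0.80). As deposited, 5 of 17 were lower and 7 higher in green cells and 3 lower and 8 higher in red cells. Olig3 fell by 3.48 in green cells on that scale and fell by 0.44 in red cells (adjusted p 0.048). Of 12 cycling-cell genes 7 were lower in green and 2 in red cells (3 lower and 4 higher in green and 0 lower and 4 higher in red cells as deposited), with Mki67 down by 1.98 in green cells. Of 20 young-neuron genes 8 were lower and 2 higher in green, and 9 lower and 2 higher in red cells (5 lower and 11 higher, and 3 lower and 10 higher, as deposited). Igfbpl1, a gene of newborn neurons, fell by 2.14 in green and by 1.59 in red cells. Of 16 genes of maturing neurons 8 were higher and 0 lower in green, and 5 higher and 1 lower in red cells (14 higher and 0 lower in each as deposited). The part of a changing share of progenitors and newborn neurons in the Sox1, Sox2 and Sox11 values was not tested.

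Sox1 lies within the span of the long noncoding gene Sox1ot in the mouse RefSeq annotation. Sox1ot had its own row, which fell by 0.59 in red (adjusted p 0.0023) and by 0.62 in green cells (adjusted p 9.9e-04) relative to the array median, but turned positive as deposited, at 0.06 and 0.08 (adjusted p 0.67 and 0.54). After quantile normalization Sox1ot differed by -0.63 and -0.57. Sox2 lies within Sox2ot, whose row named a further gene and was not used. How far the rows of overlapping genes share signal was not tested.

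The SoxC promoters are shown because, of these 3 genes of 1 subgroup, Sox12 rose between stages while Sox4 and Sox11 fell relative to the array median. The 250 bases before the annotated start are printed 5′ to 3′ on the strand of the gene, from RefSeq on build GRCm38.p6, with CCAAT boxes and GC boxes (GGGCGG) on either strand in capitals; on the other strand these read ATTGG and CCGCCC.
Sox4, chr13:28953700-28953949, minus strand: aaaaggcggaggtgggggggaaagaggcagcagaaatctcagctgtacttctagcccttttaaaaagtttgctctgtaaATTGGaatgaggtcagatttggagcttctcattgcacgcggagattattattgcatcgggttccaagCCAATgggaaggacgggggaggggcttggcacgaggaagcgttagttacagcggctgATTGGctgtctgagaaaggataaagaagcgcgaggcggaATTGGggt
Sox11, chr12:27342719-27342968, minus strand: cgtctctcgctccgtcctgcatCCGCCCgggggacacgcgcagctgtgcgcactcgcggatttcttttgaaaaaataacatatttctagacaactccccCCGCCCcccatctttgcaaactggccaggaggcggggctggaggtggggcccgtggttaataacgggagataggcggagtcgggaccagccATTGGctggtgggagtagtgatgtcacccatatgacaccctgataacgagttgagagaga
Sox12, chr2:152398047-152398296, minus strand: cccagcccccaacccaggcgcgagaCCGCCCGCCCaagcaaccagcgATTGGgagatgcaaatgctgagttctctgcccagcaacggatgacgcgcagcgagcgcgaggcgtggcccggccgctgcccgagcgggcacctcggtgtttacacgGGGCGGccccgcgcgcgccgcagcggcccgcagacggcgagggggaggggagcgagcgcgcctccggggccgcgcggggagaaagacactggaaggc

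CCAAT boxes, bound by the factor NF-Y, occurred 4 times before Sox4 and 1 time before each of Sox11 and Sox12. GC boxes, bound by Sp factors, occurred 0, 2 and 3 times, and TATAAA in none. Of 32851 mouse promoter windows of the same length, 33.8% held at least 1 CCAAT box, 2.79% held 3 or more, 32.7% held a GC box and 12.4% TATAAA. CpG dinucleotides numbered 11 for Sox4, 17 for Sox11 and 35 for Sox12, against a median of 6 over all windows, and GC content was 50.8%, 58.0% and 74.4%. Of the 3 windows that of Sox12 was the most CpG-dense and that of Sox4 the least. A link between these windows and the stage differences was not tested. Promoter entries were at hand for 9 of the 10 genes. Sox2, with 27 CpG and 1 CCAAT box, and Sox5, with 3 CpG and 0 CCAAT boxes, had unlike windows, and the latter is 1 of several possible starts of a long gene.

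Likeness of pattern was measured by Pearson's r over the 15 arrays after each array's median was removed, with no test. The arrays of a stage share their overall level, the narrow-range arrays differ in spread from the rest of their stage, and part of each r comes from the stages: r with stage means removed is given second. Closest to Sox2 were Zfhx4 (0.94 and 0.89), a zinc finger homeobox factor, Sox5 (0.93 and 0.87) and Sp9 (0.92 and 0.81). Closest to Sox5 were Sox2, Arid1b (0.92 and 0.85) and Ralgapa2 (0.91 and 0.82). Closest to Sox11 were Trrap (0.99 and 0.78), Smad5 (0.99 and 0.73) and Crebbp (0.98 and 0.71), and to Sox14 Nos2 (0.94 and 0.94), Plcb3 (0.89 and 0.93) and Slc14a2 (0.86 and 0.86), where the narrow-range arrays held the highest Sox14 values of their groups. Sox2 and Sox5 thus appeared in each other's list of 3. Sox3, singled out after its values were seen, ran against them, with r of -0.44 and -0.71 to Sox2 and -0.53 and -0.78 to Sox5.

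**Figure D4:**
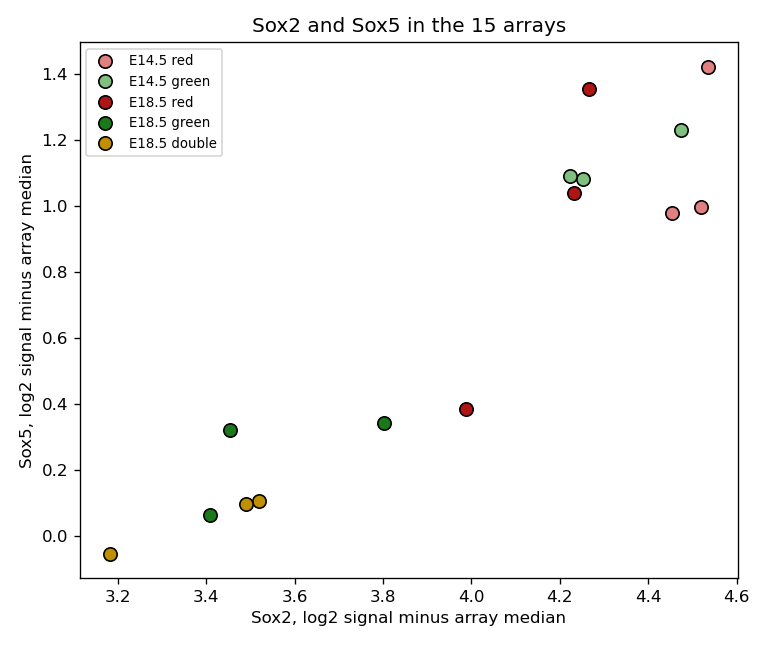
Sox5 against Sox2 in the 15 arrays, both as log2 signal minus the array median, coloured by group. The E18.5 green and double-labelled arrays lie at low values of both genes and the E14.5 arrays at high values. E18.5 red replicates 1 and 3 lie near the E14.5 arrays. Red replicate 2 is lower in both genes (Sox2 3.99, Sox5 0.38) and lies nearest E18.5 green replicate 3 (3.80 and 0.34).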

How the data were processed

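RNA from sorted cells was measured on Affymetrix arrays in 15 samples. Per the labels' protocols, 10 ng total RNA was amplified (Nugen Ovation Pico WTA V2), and Affymetrix Expression Console was used, per the submitters' processing notes; the algorithm and build are not given in the sources used here. The authors deposited log2 signals per row, between 4.15 and 13.2, used without further transformation within stages. Of 33794 rows, 23521 named 1 gene, 1814 several and 8459 none. Genes with several rows took the row of highest mean, and the lowest 25% by mean (under 5.07) were left out.

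One mean per group was estimated from all 15 arrays in R 4.3.3 with limma 3.58.1 (10 residual and 13.9 total degrees of freedom), two-sided, with Benjamini-Hochberg adjustment over 16635 genes within each of 7 comparisons. Called means adjusted p under 0.05, and the script was tested on simulated data. Stage comparisons used levels minus each array's median. The Sox genes, marker lists and settings were chosen with earlier results of these data known. All 10 Sox genes were named; list members past the threshold were eligible, at most 6 per list by adjusted p, with the 3 genes most like Sox2, Sox5, Sox11 and Sox14 by r. Figures used matplotlib 3.10.9 in Python 3.11.15. Whether same-numbered arrays were paired was checked from how their deviations from the group mean correlated. The values were 0.49 to 0.67 for E18.5 red with double-labelled cells, which met the criterion for pairing of every value over 0.1. They were 0.06 to 0.46 for red with green, 0.05 to 0.41 for double-labelled with green, and 0.07 to 0.27 at E14.5. Differently numbered red and double-labelled arrays gave -0.61 to 0.43, so some of these were over 0.1 too. The 0.67 was between the narrow-range arrays. Whether arrays were paired is thus not settled by these values. All printed differences, SEs and p-values are from the fit without a replicate block unless the block is named.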

Additional observations from a re-analysis of the deposited data

How the results depend on the processing

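Of 70 Sox differences 11 were called, all between stages, and all 11 remained called in each fit that left out 1 array. Of these, 4 remained called in all settings run: Sox12 in red and green cells and Sox1 and Sox11 in green cells. The others lost the call as deposited, where Sox4 turned positive (0.16 in red and 0.18 in green cells). Of the 59 differences not called, 13 passed in at least 1 setting. Among these, the stage differences of Sox3, Sox14 and Sox21 in both populations and of Sox6 in red cells passed only as deposited. On that scale 71.3% of all genes were called higher at E18.5 in red and 71% in green cells. The count of Sox genes called in E18.5 red against green cells was 0, and 1 after quantile normalization, with 0 to 1 in the fits without 1 array (1 without double-labelled replicate 1 and 1 without red replicate 2). For double-labelled against red cells it was 0, and 1 with the array median removed, with 0 to 1 in the fits without 1 array. At E14.5 it was 0, and 1 with 1 weight per stage. The cause of these moves was not tested. With replicate number as a block the count was 0 in all 4 comparisons within a stage and in the stage dependence, so the block changed no call; the lowest adjusted p was 0.068, for Sox2 in E18.5 red against green, and it was 0.079 for Sox2 in double-labelled against red cells. The comparisons between stages could not be fitted with the block. The number of arrays limits the precision, and no depth applies.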
